A study of Mus musculus with 6 samples.

Results

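The 8 genes described here encode transcription factors that have been tied to the Ly49 receptors of mouse natural killer (NK) cells. They are Tcf7 and Lef1 of the TCF/LEF family, Runx1, Runx2 and Runx3 of the RUNX family with their shared partner Cbfb, and Ets1 and Elf4 of the ETS family. They were chosen by gene symbol and make up 8 of 21442 genes measured. The rule used no measured value, but earlier results of these data were known when it was set. In the authors' deposited table they fall on 10 transcript clusters (the array's units of 1 transcribed locus), and 106 of 241383 exon-level probe sets belong to them. A probe set is a small group of probes within 1 stretch of a transcript.

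The 6 arrays measured splenic NK cells of C57BL/6 mice (the strain field reads C57BL/5). The spleen cells were treated with an antibody to Thy1.2 and complement to remove T cells and then grown for 7 days in medium with 1000 IU of interleukin-2, a treatment that both groups share. Cells that were CD3-negative and CD122-positive were sorted into Ly49C/I+ cells (Ly49C or Ly49I present, Ly49G2 absent, 3 arrays) and Ly49G2+ cells (Ly49G2 present, Ly49C and Ly49I absent, 3 arrays). Age, sex and the number of mice are not stated, and the labels do not say whether each sample was its own mouse or culture. The p-values here therefore reflect the variation among these 3 arrays per group, which may be technical.

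NK cells choose which Ly49 genes to express in a partly random manner, so that each cell carries its own set of receptors. In mice, TCF-1, the product of Tcf7, is needed for normal expression of the Ly49A receptor, and RUNX proteins with CBF-beta take part in the expression of Ly49 receptors and of the interleukin-2 receptor chain CD122. Ets1 and Elf4 are known from gene-deleted mice as factors that NK cells need to develop or to kill, and Elf4 binds the perforin promoter. These are statements from earlier work and not results of these arrays.

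Sequences before annotated transcript starts are shown for Runx1, the only member to pass the test, for the upstream start of Runx3, and for Klra9, the gene of Ly49I, as a receptor gene that the sort separates. They are RefSeq sequences of build GRCm38.p6, 250 bases up to the start, read in the direction of the gene. Capitals mark letters of a RUNX motif (TGTGGT), a TCF/LEF motif (CTTTGA or CTTTGT) or an ETS motif (CCGGAA or CAGGAA), searched on both strands, and no marked stretches overlap in the sequences shown.
Runx1 upstream start, chr16:92826075-92826324, minus strand: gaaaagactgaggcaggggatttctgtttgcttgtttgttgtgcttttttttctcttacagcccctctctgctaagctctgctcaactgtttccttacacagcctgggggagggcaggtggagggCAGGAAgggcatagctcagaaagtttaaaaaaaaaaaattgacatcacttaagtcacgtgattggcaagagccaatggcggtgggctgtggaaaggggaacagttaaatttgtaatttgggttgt
Runx1 downstream start, chr16:92697330-92697579, minus strand: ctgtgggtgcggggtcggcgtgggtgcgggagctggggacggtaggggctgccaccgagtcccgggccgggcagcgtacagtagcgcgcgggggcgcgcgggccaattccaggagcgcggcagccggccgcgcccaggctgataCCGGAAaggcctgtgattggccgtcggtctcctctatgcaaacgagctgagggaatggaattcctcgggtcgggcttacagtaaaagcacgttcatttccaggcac
Runx3 upstream start, chr4:135120395-135120644, plus strand: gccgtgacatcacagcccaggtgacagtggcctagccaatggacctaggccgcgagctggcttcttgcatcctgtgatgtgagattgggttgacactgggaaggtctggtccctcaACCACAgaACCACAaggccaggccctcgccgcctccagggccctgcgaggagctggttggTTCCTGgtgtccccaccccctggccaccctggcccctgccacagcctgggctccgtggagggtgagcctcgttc
Klra9, chr6:130193113-130193362, minus strand: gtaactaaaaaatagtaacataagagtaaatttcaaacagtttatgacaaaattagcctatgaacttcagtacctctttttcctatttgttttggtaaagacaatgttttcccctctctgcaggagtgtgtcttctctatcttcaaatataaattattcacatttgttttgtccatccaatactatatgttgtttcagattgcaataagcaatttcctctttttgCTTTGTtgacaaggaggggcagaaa
Both Runx1 windows hold 1 ETS motif, CAGGAA beginning 125 bases before the upstream start and CCGGAA beginning 106 bases before the downstream start. The Runx3 window holds the RUNX motif in its opposite-strand spelling (ACCACA) at 134 and at 126 bases before the start, and an ETS motif (TTCCTG) at 74 bases. The Klra9 window holds 1 TCF/LEF motif, CTTTGT, at 25 bases before the start. All windows shown hold a match, whereas many of those not shown hold none. These are the downstream Runx3 window, the windows of Cbfb and Elf4, and some of Lef1 and Tcf7. Those of Klra2, Klra3, Klra5, Klra8, Klra10 and Klra17 hold none either. Short motifs of this kind are common, since 14% of all 32851 such windows hold the RUNX motif, 27.6% the TCF/LEF motif and 35.1% the ETS motif. Windows were found for 7 of the 8 members (14 windows), of which 2 held the RUNX, 2 the TCF/LEF and 5 the ETS motif. Of the 10 windows of 9 Ly49 receptor genes, 1 held the RUNX motif, 2 the TCF/LEF motif and 1 the ETS motif. A match describes letters in a window and says nothing of binding.

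All 6 arrays had median signals between 7.73 and 7.75 on the log2 scale. The defining NK genes Ncr1 (group means 12.63 and 12.56, Ly49C/I+ first) and Klrb1c (11.56 and 11.46) gave strong signals in both groups. Of 11 NK markers 1 had a limma adjusted p under 0.05, Klrk1, 1.16-fold higher in Ly49C/I+ cells. B cell markers averaged 5.81 to 5.93 per array, near the arrays' lower quartile of 5.82 to 5.86. Of 6 myeloid markers 1 passed, Cd14, higher in Ly49G2+ cells (means 6.16 and 6.38). Lyz2 (10.19 and 10.21) and Cd68 (10.61 and 10.58) lay well above that quartile in both groups. Csf1r, Adgre1 and Mpo lay between 5.89 and 7.15. Over all genes 9.88% passed. T cell markers differed between the groups: 4 of 12 passed, namely Cd3e, Cd3d, Cd3g and Cd8a, all higher in Ly49G2+ cells. The mean of the 12 ran from 8.57 to 8.60 per array there and from 8.09 to 8.17 in Ly49C/I+ cells. All 20 cell cycle genes had a higher mean in Ly49C/I+ cells and 19 of them passed, with a list mean of 10.62 to 10.63 per array against 10.22 to 10.27. Ly49G2+ replicate 2 stood apart from the other arrays of its group, with a second principal component of 9.11 against -5.92 and -7.1. For Ly49G2+ replicate 1 the title and the source label disagree on the subset, and the title was followed; its Klra9 signal, 9.78, lay with the other Ly49G2+ arrays (9.46 and 9.78) and below the Ly49C/I+ arrays (11.48 to 11.81). Of the 8 members, 1 passed the threshold without Ly49G2+ replicate 2, as with it.

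Runx1 was the only member to pass the test. It encodes a DNA-binding factor with a runt domain that is required for blood stem cells to form and is used across the lymphoid lineages. Its transcript was 1.22-fold higher in Ly49C/I+ cells. Cbfb, which encodes the partner that strengthens DNA binding of RUNX proteins, had a difference toward the same cells, and Tcf7 and Runx2 had differences toward Ly49G2+ cells, but none of these 3 passed. Lef1, Runx3, Ets1 and Elf4 had overlapping values in both groups. In sorted bulk samples, a difference in the share of cells that express a gene and a difference in RNA per cell cannot be told apart.

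Of the 8 members, 1 had a limma adjusted p under 0.05 (Benjamini-Hochberg adjustment over all genes, two-sided), against 9.88% of all 21442 genes (6.16% higher in Ly49C/I+ and 3.72% higher in Ly49G2+ cells). At an unadjusted p under 0.05 there were 4 of 8, Runx1, Tcf7, Cbfb and Runx2, against 23% of all genes. The groups did not overlap for 4 of the 8 members, Runx1 and Cbfb with every Ly49C/I+ array above every Ly49G2+ array and Tcf7 and Runx2 the other way, against 27.8% of all genes. The median log2 difference of the 8 members was -0.016 and that of all genes was -0.010. With so few members these shares are given as counts beside the background only.

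**Figure D1:**
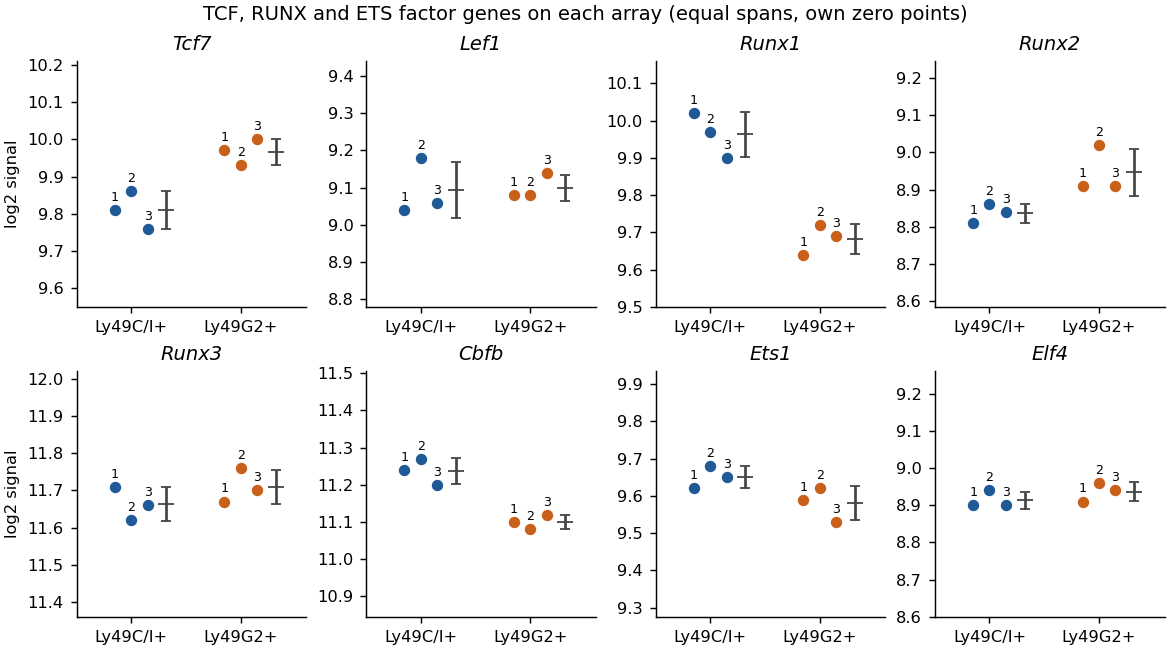
Log2 signal (vertical axis) of the 8 genes on each array, with 1 point per array numbered by replicate, blue for Ly49C/I+ and orange for Ly49G2+, and the mean with its SD beside each group of 3. All panels span the same number of log2 units but have their own zero point; Runx1 and Cbfb lie higher in all Ly49C/I+ arrays, Tcf7 and Runx2 in all Ly49G2+ arrays, and the other 4 genes overlap.

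Runx1 lies on chromosome 16 (transcript cluster 10441003). Its log2 signal was 10.02, 9.97 and 9.90 in Ly49C/I+ replicates 1 to 3 and 9.64, 9.72 and 9.69 in Ly49G2+ replicates 1 to 3. The lowest Ly49C/I+ array therefore lay above the highest Ly49G2+ array. The group means were 9.96 ± 0.059 and 9.68 ± 0.040 (SD, n = 3), and the log2 difference was 0.28 ± 0.048 (SE), with a limma adjusted p of 0.00481 and a 95% interval of 0.18 to 0.39. The absolute difference was larger than that of 95.2% of all genes. Runx1 passed in 17 of 18 alternative analyses and lost the call without variance moderation (adjusted p = 0.0531). Without Ly49G2+ replicate 2 the difference was 0.30 (adjusted p = 0.00697). The authors' deposited table gives Runx1 a ratio of 1.21 with an unadjusted p of 0.00115. After adjustment that p was 0.036 and passed. Runx1 and the cell cycle genes were higher in the same cells, and the part of cell cycle activity in the Runx1 difference was not tested.

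The difference of Runx1 ran along its whole set of exon-level rows. All 13 probe sets had a higher mean in Ly49C/I+ cells, by 0.14 to 0.58 on the log2 scale, and in 10 of them every Ly49C/I+ array lay above every Ly49G2+ array. Over all 241383 probe sets, 10.3% were separated in that direction. The widest gap was at probe set 10, counted in order of ID, with 10.44, 10.40 and 10.26 in Ly49C/I+ replicates 1 to 3 against 9.72, 9.76 and 9.88 in Ly49G2+ replicates. The smallest was at probe set 2, with means of 11.07 and 10.93, where the groups overlapped. Probe set 11 lay between 4.57 and 4.98 on all arrays, below the lower quartile, so that its difference of 0.24 is one between dim signals. Tested singly and adjusted over all probe sets, 0 of the 13 had a limma adjusted p under 0.05 (lowest 0.0911), against 0.0261% of all probe sets. At an unadjusted p under 0.05 there were 9 of 13, against 12.6% of all probe sets. With a variance trend and robust moderation, 1 probe set of Runx1, number 10, passed (adjusted p = 0.0428).

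Cbfb, on chromosome 8 (cluster 10574632), encodes CBF-beta, which does not bind DNA by itself and pairs with each of the RUNX proteins. On the log2 scale it measured 11.24, 11.27 and 11.20 in Ly49C/I+ replicates and 11.10, 11.08 and 11.12 in Ly49G2+ replicates. No array of one group reached into the range of the other. The log2 difference was 0.14 ± 0.043 (SE), 1.10-fold, with a limma adjusted p of 0.0727, so that it missed the threshold. The 95% interval ran from 0.04 to 0.24. It passed in 2 of 18 alternative analyses, with a variance trend (adjusted p = 0.0104) and with the genes above the median signal (0.0296). With the median of probe sets the difference was 0.22 (adjusted p = 0.112). Of its 8 probe sets, 7 had a higher mean in Ly49C/I+ cells and 4 were separated in that direction, against 10.3% of all probe sets. The largest difference was at probe set 3, with 11.20, 11.19 and 11.14 against 10.91, 10.88 and 10.96. Probe set 1 was the exception, with means of 10.02 and 10.10.

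The differences of Runx2 and Runx3 had the opposite sign to that of Runx1, and neither passed. Runx2, on chromosome 17, is the factor that directs bone formation and is expressed in lymphocytes as well. Its log2 signal was 8.81, 8.86 and 8.84 in Ly49C/I+ replicates and 8.91, 9.02 and 8.91 in Ly49G2+ replicates, so that all Ly49G2+ arrays were higher. The difference was -0.11 ± 0.048 (SE), with an unadjusted p of 0.0476 and a limma adjusted p of 0.212, and it passed in 0 of 18 alternative analyses. Without Ly49G2+ replicate 2 it was -0.07 (adjusted p = 0.428).

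Runx2 had 2 transcript clusters, 10451061 with 15 probe sets and 10445357 with 2. Both had lower means in Ly49C/I+ cells, by 0.07 and 0.15 in size. The authors' deposited table gives ratios of 0.918 (unadjusted p = 0.0124) and 0.921 (unadjusted p = 0.151). After adjustment the deposited p for Runx2 was 0.109 and did not pass. The gene value here weighted both clusters equally. With the larger cluster alone the difference was -0.07 (limma adjusted p = 0.436). With all probe sets averaged at once, an alternative chosen after seeing the data, it was -0.08 (limma adjusted p = 0.348). Of the 17 probe sets, 14 had a higher mean in Ly49G2+ cells, and the 4 that separated (23.5%) all did so in that direction, against 8.47% of all probe sets. The most negative difference was at the second probe set of the smaller cluster, with 7.54, 7.61 and 7.83 in Ly49C/I+ and 7.79, 8.11 and 7.86 in Ly49G2+ replicates, where the groups overlapped. The largest difference the other way was 0.25, at probe set 12 of the larger cluster.

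Runx3, on chromosome 4 (cluster 10509030), is the family member most closely associated with NK cells and CD8 T cells. The arrays gave log2 signals of 11.71, 11.62 and 11.66 in Ly49C/I+ replicates and 11.67, 11.76 and 11.70 in Ly49G2+ replicates. The groups overlapped, and the difference was -0.05 ± 0.047 (SE, limma adjusted p = 0.611). The 95% interval of -0.15 to 0.06 holds 0 and leaves out a difference of the size estimated for Runx1. Its sign turned with the median over probe sets (0.03) and in the authors' deposited table (ratio 1.005). Of 8 probe sets 1 was separated (12.5%, against 18.8% of all probe sets), number 6, with 12.05, 12.07 and 12.00 in Ly49C/I+ and 11.93, 11.94 and 11.96 in Ly49G2+ replicates. The most negative was number 8, where Ly49C/I+ replicate 2 at 9.66 lay below the other 5 arrays at 10.15 to 10.38.

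**Figure D2:**
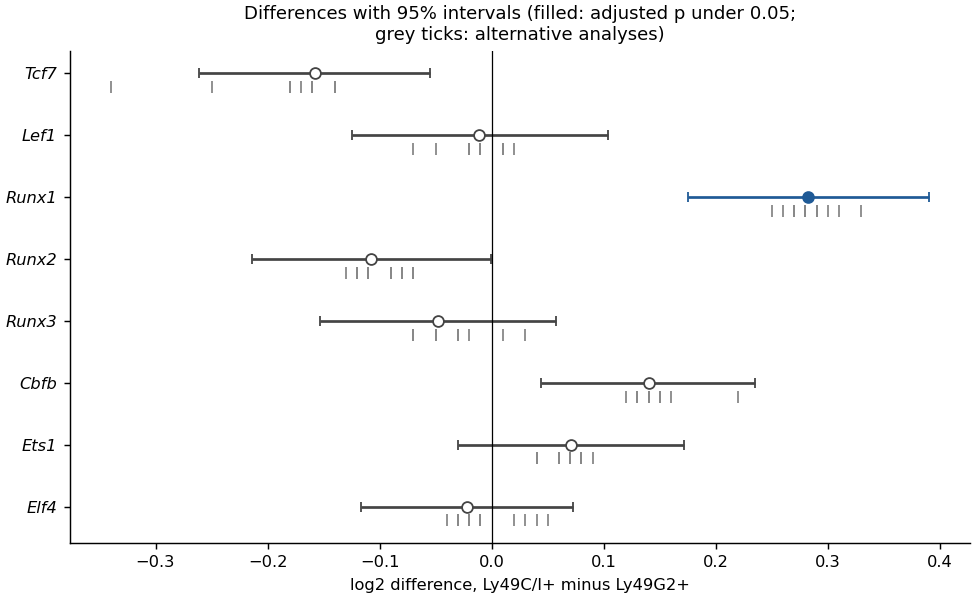
Log2 difference (Ly49C/I+ minus Ly49G2+, horizontal axis) of each gene with its 95% interval from limma, and as grey ticks below it the difference in each of 18 alternative analyses, some of which coincide. Runx1 is the only gene drawn filled (adjusted p under 0.05); the intervals of Tcf7, Cbfb and Runx2 leave out 0, before adjustment for the number of genes, and those of Lef1, Runx3, Ets1 and Elf4 hold it.

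Tcf7, on chromosome 11 (cluster 10385776), encodes TCF-1, an HMG-box factor that acts with beta-catenin or with Groucho-type repressors and is made in long and short forms, of which the short ones lack the part that binds beta-catenin. Its log2 signal was 9.81, 9.86 and 9.76 in Ly49C/I+ replicates and 9.97, 9.93 and 10 in Ly49G2+ replicates. The lowest Ly49G2+ value exceeded the highest Ly49C/I+ value, by a small gap. The log2 difference was -0.16 ± 0.046 (SE), 1.12-fold, with a limma adjusted p of 0.0613 and a 95% interval of -0.26 to -0.06. It passed in 6 of 18 alternative analyses, with adjusted p-values from 0.0241 (array weights) to 0.503 (median of its probe sets) over all 18. In the authors' deposited table the ratio was 0.841, a log2 value of -0.25, with an unadjusted p of 0.00345. After adjustment that p was 0.0564 and did not pass. The median over probe sets gave -0.34, so the size of the Tcf7 difference moved by over 1.5 times with the way its probe sets were combined, and was then as large as that of Runx1 (0.33). Without Ly49G2+ replicate 2 it was -0.18 (adjusted p = 0.0551).

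The 13 probe sets of Tcf7 went both ways. In 8 of them the groups were separated with the Ly49G2+ arrays on top, and in 2, numbers 2 and 3, with the Ly49C/I+ arrays on top. Over all probe sets 8.47% were separated toward Ly49G2+ cells and 10.3% toward Ly49C/I+ cells. The most negative difference was -0.74 at probe set 7, with 10.12, 9.53 and 10.45 in Ly49C/I+ and 10.81, 10.78 and 10.74 in Ly49G2+ replicates. The most positive was 0.62 at probe set 2, a dimmer row, with 6.29, 6.84 and 6.09 against 5.63, 5.96 and 5.76. At probe set 12, named after its values were seen, Ly49G2+ replicate 2 was at 8.84 while the other 5 arrays were at 10.15 to 10.50, which turned the mean difference of that row positive. Tested singly, 0 of the 13 had a limma adjusted p under 0.05 (lowest 0.0981). At an unadjusted p under 0.05 there were 7 of 13, against 12.6% of all probe sets. The probe sets are numbered by ID, their place in the transcript is not known here, and they cannot be assigned to the long or short forms.

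Lef1, on chromosome 3 (cluster 10496091), is the close relative of Tcf7 and can stand in for it in part during T cell development. Log2 signals were 9.04, 9.18 and 9.06 in Ly49C/I+ replicates and 9.08, 9.08 and 9.14 in Ly49G2+ replicates. The Ly49G2+ values lay within the range of the Ly49C/I+ values. The difference was -0.01 ± 0.051 (SE, limma adjusted p = 0.936), with a 95% interval of -0.13 to 0.10. Of 18 probe sets, 8 had the higher mean in Ly49C/I+ and 10 in Ly49G2+ arrays. The most positive was 0.37 at number 1, with 8.60, 9.06 and 9.29 against 8.52, 8.58 and 8.73, and the most negative was -0.22 at number 12, and both overlapped. Of the 18, 3 separated (16.7%), all toward Ly49G2+ cells, a share near the 18.8% of all probe sets.

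Some of the T cell markers and Tcf7 had higher values in the same cells. T cells use both Tcf7 and Lef1. The other 8 of the 12 T cell markers were not past the threshold. Thy1, Cd28, Cd5, Cd6, Cd4, Cd8b1 and Bcl11b had log2 differences from -0.09 to 0.10. Cd247, the CD3 zeta chain that NK cells also use, had 0.15, with all Ly49C/I+ arrays above (limma adjusted p = 0.0709). Of 5 markers of immature NK cells and other innate lymphoid cells, Kit (1.15-fold) and Cd27 (1.24-fold) passed, both higher in Ly49G2+ cells. The mean of the 5 was 9.21 to 9.24 per array there against 9.06 to 9.13. The part of T cells or of immature cells in the Tcf7 difference was not tested.

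Ets1, on chromosome 9 (cluster 10584142), founded the ETS family and is abundant in lymphocytes. Its log2 signal was 9.62, 9.68 and 9.65 in Ly49C/I+ replicates and 9.59, 9.62 and 9.53 in Ly49G2+ replicates. Ly49C/I+ replicate 1 and Ly49G2+ replicate 2 met at 9.62, so the groups were not separated. The difference was 0.07 ± 0.045 (SE, limma adjusted p = 0.403), with a 95% interval of -0.03 to 0.17. In the authors' deposited table the ratio was 1.03 with an unadjusted p of 0.0231. After adjustment that p was 0.155 and did not pass. Without Ly49G2+ replicate 3 the log2 difference was 0.04 (limma adjusted p = 0.683). Most of the 19 Ets1 probe sets showed small differences, with a median of 0.04. Of the 19, 5 were separated (26.3%, against 18.8% of all probe sets). Another 2, numbers 3 and 13, were below the lower quartile on all arrays, and their groups overlapped. The largest difference was 0.60 at number 16, with 7.52, 7.51 and 7.34 in Ly49C/I+ and 7.04, 6.71 and 6.83 in Ly49G2+ replicates. The most negative was -0.31 at number 2, where the groups overlapped. Number 19 was separated the other way, with 11.71, 11.81 and 11.72 against 11.98, 11.98 and 11.92 (named after its values were seen).

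Elf4, on chromosome X, encodes the ETS factor also called MEF. The log2 signals, over both of its clusters, were 8.90, 8.94 and 8.90 in Ly49C/I+ replicates and 8.91, 8.96 and 8.94 in Ly49G2+ replicates. These values overlapped, and the difference was -0.02 ± 0.042 (SE, limma adjusted p = 0.821), with a 95% interval of -0.12 to 0.07. The average hides 2 clusters of unequal strength. Cluster 10604393, with 9 probe sets, had group means of 11.43 and 11.39 (Ly49C/I+ first), and cluster 10604403, with 1 probe set, had 6.40 and 6.49. With the stronger cluster alone the sign turned, to 0.04 (limma adjusted p = 0.654). Of the 10 probe sets 3 were separated (30.0%, against 18.8% of all probe sets), number 3 and number 4 of the stronger cluster toward Ly49C/I+ cells, by 0.14 and 0.12, and the single probe set of the weaker cluster toward Ly49G2+ cells, by 0.09 in size.

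**Figure D3:**
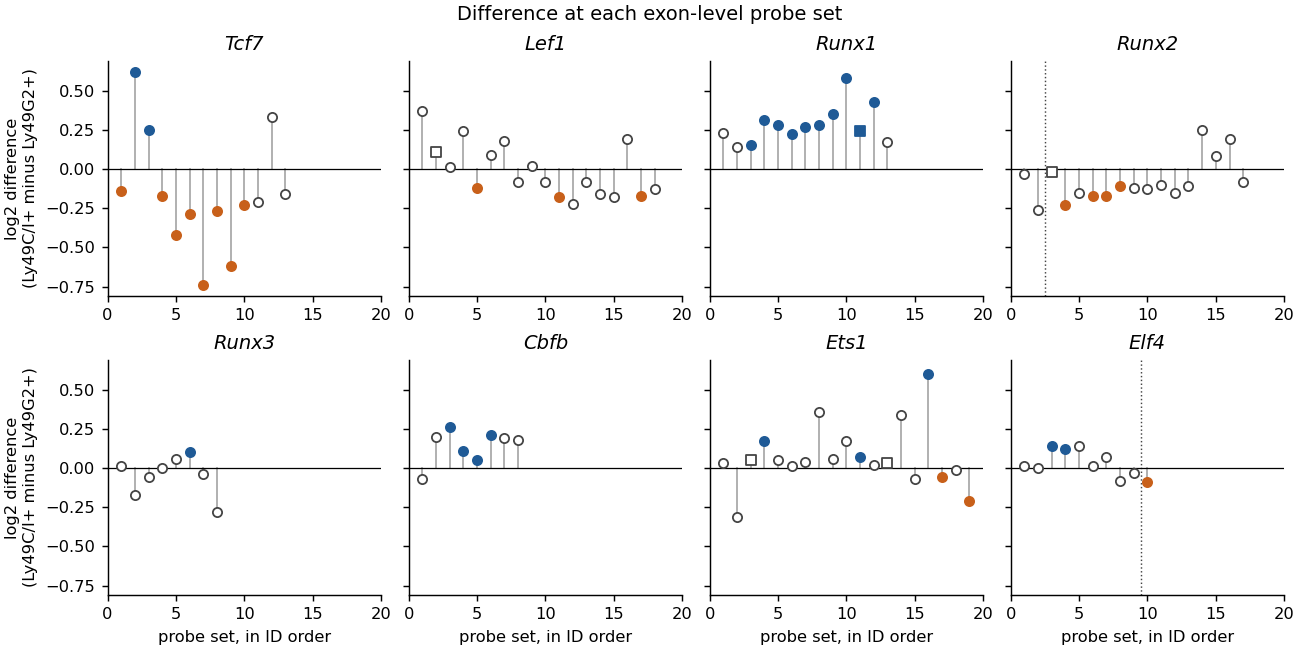
Log2 difference (Ly49C/I+ minus Ly49G2+, vertical axis) at each of the 106 exon-level probe sets, in order of ID along the horizontal axis, with dotted lines between the 2 clusters of Runx2 and of Elf4. Filled points mark probe sets whose arrays do not overlap between groups (blue toward Ly49C/I+, orange toward Ly49G2+), open points those that overlap, and squares those below the arrays' lower quartile; the points of Runx1 all lie above 0, whereas those of Tcf7 lie on both sides.

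Taking the 106 probe sets of the 8 genes together, 58 had the higher mean in Ly49C/I+ and 48 in Ly49G2+ arrays. The groups were separated in 40 of them, 22 toward Ly49C/I+ and 18 toward Ly49G2+ cells, which is 37.7% against 18.8% of all probe sets. Probe sets of 1 gene share a transcript and are not independent, and 20 of the 40 belong to Runx1 and Tcf7. By limma 0 of the 106 passed after adjustment, and 22 had an unadjusted p under 0.05, against 12.6% of all probe sets.

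The genes whose values over the 6 arrays were most like those of Runx1, by Pearson's r, were Mir24-2 (r = 0.997), a microRNA gene, Apol9b (r = 0.996), an apolipoprotein L gene, and Rnf141 (r = 0.996), which encodes a RING finger protein. The 6 arrays fall into the same 2 groups for every gene, so such a value describes a shared group difference together with a shared order within the groups. Apol9b was 1.30-fold higher in Ly49C/I+ cells (limma adjusted p = 0.0031) and Rnf141 1.13-fold (0.0285). Mir24-2 was at 7.43, 7.41 and 7.39 against 7.28, 7.30 and 7.29 and did not pass (0.105).

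Partners and relatives of the 8 factors went both ways in small numbers. Of 29 genes of TCF/LEF partners and the beta-catenin pathway, 1 passed in each direction (6.9% in all, against 9.88% of all genes). Dvl1, which passes on Wnt receptor signals, was 1.18-fold higher in Ly49C/I+ cells (limma adjusted p = 0.00632). Tcf7l2, a further member of the TCF/LEF family, was 1.19-fold higher in Ly49G2+ cells (0.00703), with means of 7.41 ± 0.012 and 7.65 ± 0.053 (SD, n = 3). The median log2 difference of this list was -0.019.

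Of 16 measured RUNX cofactors and modifiers, 2 passed in each direction (4 of 16, against 9.88% of all genes). Suv39h1, a histone H3 methyltransferase, was 1.25-fold and Sin3a, a corepressor scaffold, 1.15-fold higher in Ly49C/I+ cells. Hipk2, a nuclear kinase, and Wwtr1, the coactivator TAZ, were each 1.18-fold higher in Ly49G2+ cells, Wwtr1 with dim means of 6.54 and 6.78 (Ly49C/I+ first). This count fell to 1 without Ly49C/I+ replicate 2 or without Ly49G2+ replicate 1, to 2 without Ly49C/I+ replicate 3, and to 1 both without variance moderation and with the median over probe sets. Of 24 other ETS family genes 4 passed (16.7%). Ets2 (1.19-fold) and Etv3 (1.13-fold) were higher in Ly49C/I+ cells. Erg (1.16-fold, means 6.19 and 6.40, Ly49C/I+ first) and Spdef (1.14-fold, 7.10 and 7.29) were higher in Ly49G2+ cells, both below the arrays' median signals. That count was 0 without variance moderation, when probe sets were combined by their median, and without Ly49C/I+ replicate 2 or 3, and it was 1 without Ly49C/I+ replicate 1, Ly49G2+ replicate 1 or Ly49G2+ replicate 3.

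Genes known as targets of these factors were mostly not past the threshold. Of 14 genes known as RUNX targets in lymphocytes, 4 passed, against 9.88% of all genes, and the list's median log2 difference was -0.059. Itgae, the CD103 integrin chain, was 1.38-fold higher in Ly49G2+ cells (limma adjusted p = 0.000319), as were Cd8a (1.64-fold) and Csf2, the gene of GM-CSF (1.24-fold). The chemokine gene Ccl3 was 1.13-fold higher in Ly49C/I+ cells. Cd8a is also 1 of the T cell markers that differed. The effector genes Prf1, Gzmb and Ifng and the receptor gene Il2rb, the gene of CD122, missed the threshold, at log2 differences of -0.04, 0.07, -0.11 and -0.02.

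Of 16 genes known as TCF/LEF targets, which include Lef1 itself, 1 passed (6.2%, against 9.88% of all genes). It was the proliferation factor Myc, 1.23-fold higher in Ly49C/I+ cells (limma adjusted p = 0.00392), the direction in which 19 of 20 cell cycle genes also passed. Axin2, which is widely read as a sign of TCF/beta-catenin activity, differed by -0.09 ± 0.065 (log2, SE) and did not pass (limma adjusted p = 0.442). Of 8 genes known as targets of ETS1 or ELF4, 1 passed (12.5%, against 9.88% of all genes). It was S1pr1, the receptor for exit from lymphoid organs, 1.26-fold higher in Ly49G2+ cells. Its means of 5.57 and 5.91 were close to the arrays' lower quartile. That count was 0 without Ly49C/I+ replicate 2 and 2 without Ly49C/I+ replicate 1. Klf2, which Elf4 induces in CD8 T cells, differed by 0.22 ± 0.065 (log2, SE) and did not pass (limma adjusted p = 0.069).

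Ly49 receptor genes included larger differences than any of the 8 factors. Among 9 measured, 6 passed (66.7%, against 9.88% of all genes), 4 toward Ly49C/I+ and 2 toward Ly49G2+ cells. The sort on Ly49 proteins fixes part of this. Klra10 (4.13-fold), Klra9, Klra3 (1.80-fold) and Klra5 (1.39-fold) were higher in Ly49C/I+ cells. Klra1 (1.64-fold) and Klra2 (1.28-fold) were higher in Ly49G2+ cells. The Klra1 value is a mean over 41 probe sets, against 13 for Klra9, and whether all of them read Klra1 was not tested. Klra2 was dim, with means of 6.38 and 6.73 (Ly49C/I+ first). The list did not include Klra7, the gene of Ly49G2, so the directions are not those of the whole family. Klra9 had means of 11.65 ± 0.165 and 9.67 ± 0.187 (SD, n = 3, Ly49C/I+ first), a log2 difference of 1.98 that compares with 0.28 for Runx1 and -0.16 for Tcf7. Ly49 genes are near-identical in part, so that signals of single members are uncertain.

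**Figure D4:**
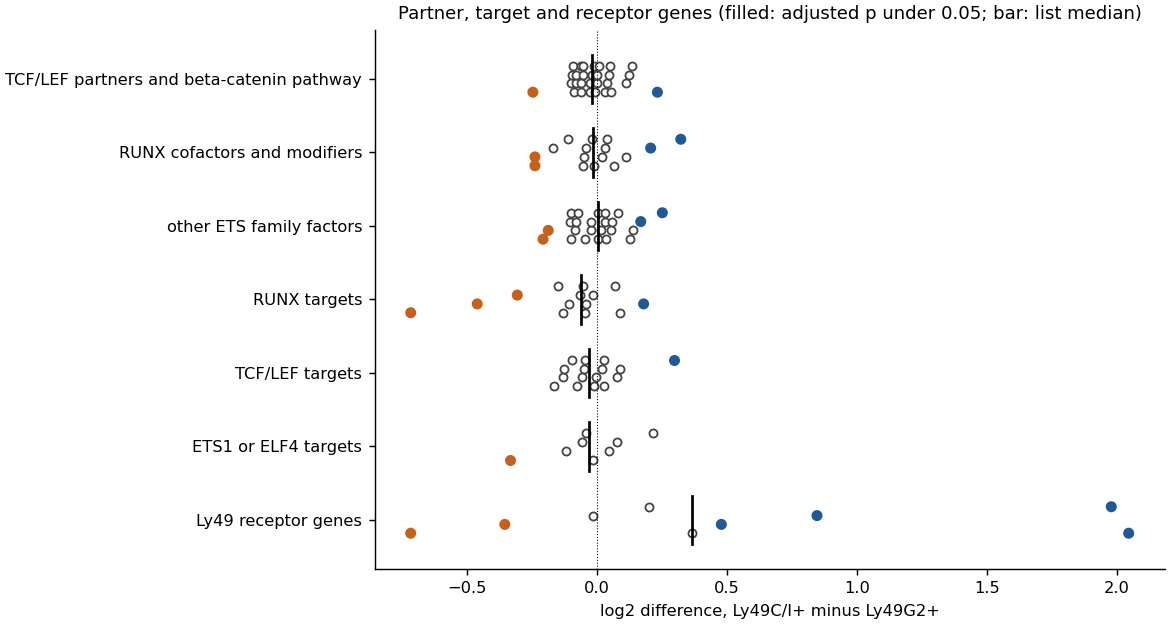
Log2 difference (Ly49C/I+ minus Ly49G2+, horizontal axis) of each measured gene in 7 lists of partners, relatives, targets and Ly49 receptors, with filled points for adjusted p under 0.05 (blue toward Ly49C/I+, orange toward Ly49G2+) and a bar at the list's median. Medians of the first 6 lists lie between -0.059 and 0.006, while Ly49 receptor genes reach 2.05.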

How the data were processed

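RNA was measured on Affymetrix-type arrays in 6 samples, grouped by their titles. Per the labels' protocols, RNA was amplified with the Ambion WT kit, and the submitters' processing notes name Partek and RMA, with versions, settings and genome build not given in the sources used here. The authors deposited log2 values of exon-level probe sets per array. They also deposited, per transcript cluster, group means on the log2 scale, an ANOVA p-value and a ratio of Ly49C/I+ over Ly49G2+, with further columns (a signed fold, F values and sums of squares, other than plain ratios) per the file headers. Of the probe sets, 241383 were joined to clusters as the unbroken run of IDs after each cluster's ID and 193 were left out. Across clusters, which are not independent, run means and the deposited group means correlated at r = 0.990 for Ly49C/I+. Gene symbols came from the deposited table, updated through RefSeq accessions (21020 clusters matched, 1926 changed).

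For each array, a gene's value was the mean over its clusters of each cluster's mean probe-set value. Groups were compared by limma (version 3.58.1, under R 4.3.3, with lmFit and then eBayes and no filter on dim genes), Benjamini-Hochberg adjusted over all genes or all probe sets, with a threshold of 0.05. The tests were tried on simulated data. A test of unequal differences within a gene (limma's diffSplice) had been planned, but it called genes in simulated data that had none, so it is not reported. Named genes are the 8 members, the passing members of each list (at most 8), or the 2 of lowest p where none passed, the 3 genes most like a passing member, and the probe sets of largest difference in each direction. Others named were chosen after their values were seen. The members and lists were chosen with earlier results of these data known. Kmt2a and Klra4 matched no gene tested. Arrays give no read depth, and 3 per group limit the precision. Python 3.11.15, pandas 2.3.3, numpy 2.4.6 and matplotlib 3.10.9 were used.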

Additional observations from a re-analysis of the deposited data

How the results depend on the processing

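The call of Runx1 held in 17 of 18 alternative analyses and was lost without variance moderation. The number of the 8 factor genes that passed was 1 in the main analysis. It was 0 without variance moderation, 2 after quantile normalization again, median centring, array weights or a filter at the 25th percentile of signal, 3 with a variance trend and robust moderation or with the genes above the median signal, and 1 to 1 with 1 array left out. The further passing genes were Tcf7 in each of these settings and Cbfb in the last 2 of them. For genes near 0 the sign turned. With 1 array left out Lef1 ranged from -0.05 to 0.02, positive without Ly49C/I+ replicate 1 or 3 or Ly49G2+ replicate 3 (0.02, 0.01 and 0.01). Runx3 was at 0.03 with the median of probe sets and 0.01 in the authors' deposited table. Elf4 was at 0.02 with that median, 0.04 with its highest cluster, 0.03 with all probe sets averaged at once (an alternative chosen after seeing the data) and 0.05 in the authors' deposited table.

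Over all genes 2118 passed, against 898 without moderation, 679 with the median of probe sets, 1149 with the authors' deposited p-values, and 1351 to 1877 with 1 array left out (1351 when Ly49C/I+ replicate 2 was dropped and 1403 for Ly49C/I+ replicate 3). Of the genes in the 7 lists other than the 8 factors, 22 passed, against 11, 7 and 13 in the first 3 of these settings and 13 to 20 with 1 array left out (13 and 14 when replicate 2 or 3 of Ly49C/I+ was dropped). Single probe sets that passed numbered 63, against 1477 with a variance trend and robust moderation, 104 above the 25th percentile of signal, and 3 to 13 with 1 array left out. Of the 106 probe sets of the 8 genes, 1 passed with the trend, and 0 in the main analysis. With the median of probe sets the counts fell to 0 for TCF/LEF partners, other ETS genes, TCF/LEF targets and ETS1 or ELF4 targets, and to 1 for RUNX cofactors and RUNX targets. The cause of these shifts was not tested. The deviations of same-numbered arrays from their group means correlated at -0.076, -0.186 and -0.046. With 3 arrays per group these values cannot decide whether same-numbered arrays were paired, and the labels do not say. With the replicate number as a block, 1476 genes, 1 of the 8 factors (Runx1, adjusted p = 0.0196), 15 list genes and 0 probe sets passed, and the count of other ETS family genes fell from 4 to 0.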
